A study of Mus musculus with 10 samples.

Results

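The 56 genes described here are homeobox and Pax transcription factors outside the Hox clusters that pattern the embryo and specify cell types, mostly in places other than the cerebral cortex. They were taken by name, with no minimum level, from the 55487 genes of a bulk RNA-seq study of mouse cerebral cortex at 18 days of age, and all 56 were found. The study compared 5 animals with the genotype Usp7 cKO; Trp53+/- with 5 animals with the genotype Usp7 WT; Trp53+/-, called Usp7 cKO and Usp7 WT below. Usp7 is a deubiquitinase, and the conditional knockout (cKO) joined a floxed Usp7 allele (Usp7 fl/fl) with NEX-cre, which acts in glutamatergic neurons, so other cells of the cortex keep Usp7. Both groups carry only 1 working copy of Trp53, the gene for p53, so no value here comes from animals with normal Trp53. The question is which of these normally silent factors rose in Usp7 cKO and which stayed silent.

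A homeodomain or paired domain binds DNA, and most of these factors switch on a program for one cell type or body region during development. In tissues where they have no role they are usually kept off by Polycomb group complexes, which mark CpG-rich gene starts with repressive histone marks. A few members, such as Pou3f1 and Otx1, belong to the normal cortex. The others are named below by family with the tissue each is known for.

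Levels are TPM (transcript abundance scaled for gene length and library total), and a gene is called silent in a group when its mean is under 0.5 TPM. Depth comes from counts of reads in exon bins, which summed to 42628526 to 51797145 per library, so that a gene with 0 reads in a library lies under 0.0579 to 0.0704 counts per 1000000 counts (CPM). Usp7 itself was at 48.3 to 61.9 TPM in Usp7 WT and at 31.6 to 40.9 TPM in Usp7 cKO, with no overlap. The two-sided tests, with an adjusted p threshold of 0.05, were edgeR's quasi-likelihood test on the counts and limma on log2(TPM + 0.5). The library labelled Usp7 WT replicate 2 (female) and the library labelled Usp7 cKO replicate 1 (male) had Xist and Y-linked transcripts of the other sex, and both followed their labelled genotype for Usp7. By these transcripts Usp7 WT replicates 1 and 5 and Usp7 cKO replicates 1, 2, 3 and 5 were female and the others male. Sex was thus uneven between the groups, while the main fits adjust for labelled sex only. Library identifiers run in the order of the genotypes, so the order of the libraries and the genotype cannot be told apart.

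Of the 56 members, 39 were silent in Usp7 WT cortex. In Usp7 cKO 13 of these 39 (33.3%) had a mean of 0.5 TPM or more and 26 stayed under it, while no member went from detected to silent. Over all 44015 genes with a TPM above 0, 9.41% of those silent in Usp7 WT passed 0.5 TPM in Usp7 cKO, and over protein-coding genes 10.2% did. The members were chosen with earlier results of these data known, so their excess over all genes may partly reflect that choice. Going from detected to silent was rare over all genes (719, against 26324 detected in both groups). The 0 among the 17 detected members lies near that share. In bulk cortex more cells that transcribe a gene and more RNA per cell cannot be told apart, and neither can fewer cells of a type and less RNA per cell.

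**Figure D1:**
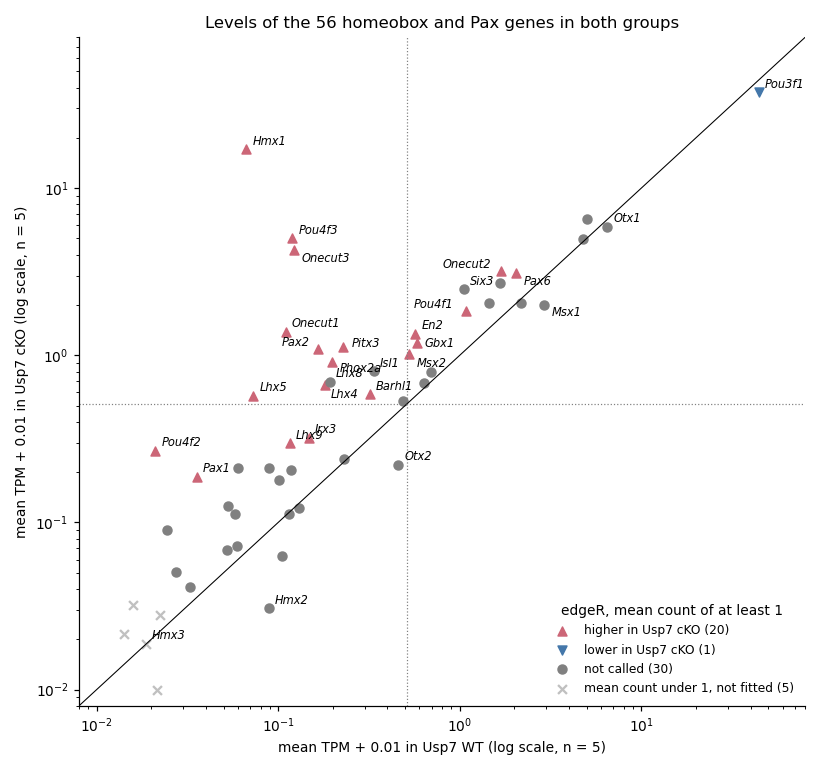
Mean level of each of the 56 members in Usp7 WT (x axis) and Usp7 cKO (y axis), both as TPM + 0.01 on log scales with n = 5 per group; dotted lines mark 0.5 TPM and the diagonal marks equal levels. Hmx1, Pou4f3 and Onecut3 lie farthest above the diagonal, and Pou3f1, at the upper right, is the 1 member called lower.

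On the counts of genes with a mean of at least 1 read, edgeR called 20 of 51 members higher (39.2%) and 1 lower in Usp7 cKO, where 9.97% of all 32343 genes tested were higher and 9.73% lower. The median log2 change of the 51 members was 0.91. This minimum was added after the data were seen, and the choice of members with earlier results known bears on these shares as well. Without any minimum, as the test was first planned, edgeR called 24 of 56 members higher and 3 lower against backgrounds of 9.45% and 8.05% of 41350 genes, but it then found no variation in spread between genes. The 6 members called there and not with the minimum (Six3, Isl1, Lhx8, Alx4, Otx2 and Msx1) have libraries that overlap between the groups, and they are treated as not called below. DESeq2 called 18 members higher, Alx4 among them (adjusted p = 0.0375), and 1 lower, with no adjusted p for 15 others (backgrounds 7.38% and 8.51%). It did not call Pax1, Barhl1 and Irx3, which edgeR called higher (DESeq2 adjusted p = 0.0603, 0.0607 and 0.0768). With limma, 25 members passed a mean of 0.5 TPM, of which 13 were higher and 1 lower, against 9.22% higher and 4.67% lower of 27580 genes. Rescaling TPM moved the share of higher calls over all genes from 66.4% to 46.8% and left the members at 13 higher and 1 lower. Without both libraries of discordant sex edgeR (mean count of at least 1) called 18 members higher and 1 lower, and limma 6 higher and 0 lower. The calls that ended there were Pax1, Msx2 and Irx3 in edgeR (adjusted p = 0.0963, 0.0602 and 0.185) and, in limma, Pou4f1, Pou3f1, Pax6, En2, Gbx1, Pitx3, Phox2a and Msx2 (adjusted p = 0.0532 to 0.204). Lhx3 was the 1 member that edgeR called there and not with all 10 libraries. With Xist as covariate in place of labelled sex, edgeR (mean count of at least 1) called 2454 of 32343 genes higher and limma 1688 of 27580. With that covariate the edgeR call of Irx3 was lost (adjusted p = 0.129). The limma calls of Pax6, En2, Gbx1 and Msx2 were lost as well (adjusted p = 0.0556 to 0.112). In 17 of the 56 members (30.4%) every Usp7 cKO library lay above every Usp7 WT library, where 5.68% of 44015 genes did. No member had all Usp7 cKO libraries below all Usp7 WT libraries (background 3.01%).

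**Figure D2:**
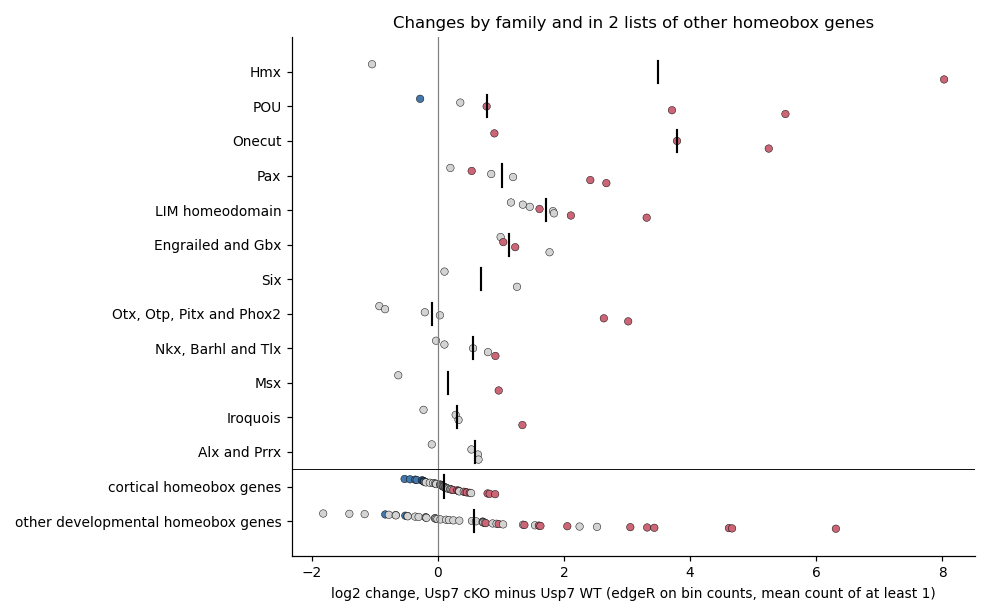
Log2 change in Usp7 cKO against Usp7 WT (x axis, edgeR on counts) of the members by family and, under the line, of 2 lists of other homeobox genes; each point is a gene, red is called higher, blue called lower, grey not called, and black bars are medians. Hmx1 lies at 8.03, and the 3 Onecut genes are all red.

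The change in Hmx1 was the largest, and its start region and those of 2 further members with a strongly CpG-rich start are shown to set a gene that rose from silence beside one that did not. Shown are the 250 bases before the RefSeq start of Hmx1 and Onecut1 and, of the same window of Hmx3, the 154 bases that lie before the GENCODE start as well (GRCm38.p6, plus strand, 5′ to 3′), with the dinucleotide CG, which reads the same on both strands, in capitals. The windows are chr5:35388611-35388860 for Hmx1, chr9:74861671-74861920 for Onecut1 and chr7:131542713-131542866 for Hmx3.
Hmx1: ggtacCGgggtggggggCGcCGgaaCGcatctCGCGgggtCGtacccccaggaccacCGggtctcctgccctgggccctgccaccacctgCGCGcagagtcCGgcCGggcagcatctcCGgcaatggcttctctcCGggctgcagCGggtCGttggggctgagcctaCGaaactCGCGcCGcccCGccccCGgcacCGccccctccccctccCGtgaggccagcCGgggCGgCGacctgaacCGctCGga
Onecut1: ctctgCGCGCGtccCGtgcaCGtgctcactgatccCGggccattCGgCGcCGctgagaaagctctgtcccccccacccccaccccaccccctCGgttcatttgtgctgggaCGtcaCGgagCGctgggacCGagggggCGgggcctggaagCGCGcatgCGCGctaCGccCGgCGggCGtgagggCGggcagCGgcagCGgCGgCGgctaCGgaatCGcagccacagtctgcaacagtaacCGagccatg
Hmx3: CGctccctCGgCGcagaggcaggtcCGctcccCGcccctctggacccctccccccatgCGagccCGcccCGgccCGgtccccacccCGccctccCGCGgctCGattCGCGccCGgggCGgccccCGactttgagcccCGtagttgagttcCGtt

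Hmx1 had 29 CG in its 250 bases, Onecut1 31 and Hmx3 31, of which 20 are among those shown. Of all RefSeq starts in the table, 6.78% hold at least 29 and 5.19% at least 31. Hmx1 and Onecut1 rose in Usp7 cKO, while Hmx3 stayed at 0 or 1 read per library. RefSeq starts off chromosome 18 were matched for 42 members, with a median of 17 CG at the richest start of each gene, against 6 over all 27025 genes. Members called higher had a median of 16 (14 genes) and members silent in both groups and not called higher 18 (19 genes), so the medians of both lay close together. The 14 include Pou4f1, Pax6 and Msx2, which were not silent in Usp7 WT. Pou4f3, Onecut2, Onecut3, Lhx5, En2 and Gbx1 were also called higher but had no matched start.

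The 3 Hmx genes went different ways. Hmx1, a factor of sensory neurons, the eye and the outer ear, is annotated on chr5 from 35389108 to 35399730 (GRCm38, plus strand, ENSMUSG00000067438). It was at 0.0787, 0.0721, 0, 0 and 0.133 TPM in Usp7 WT replicates 1 to 5 and at 18.1, 18.8, 16.1, 19.1 and 13.5 TPM in Usp7 cKO replicates 1 to 5. All Usp7 cKO libraries were far above all Usp7 WT libraries, with 1225 reads in Usp7 cKO against 4 in Usp7 WT. Scaled to the library totals this is a ratio of 320, with a 95% exact interval of 125 to 1178 that covers counting error only. Among 32343 genes Hmx1 had the largest log2 change (8.03, edgeR adjusted p = 6.79e-12; on the log2(TPM + 0.5) scale 4.98, SE 0.140, limma adjusted p = 2.92e-08). Hmx2 and Hmx3, which lie side by side on chromosome 7 and act in the inner ear and hypothalamus, stayed silent. Hmx2 had 9 reads in Usp7 WT, 8 of them in replicate 5, and 4 in Usp7 cKO, and Hmx3 had 0 and 1.

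Reads of Hmx1 covered the gene. All 4 of its bins, 3 of them coding, were higher in every Usp7 cKO library than in any Usp7 WT library, and the 3 coding bins held 1063 reads in Usp7 cKO against 4. There are 2 annotated transcript models that overlap Hmx1, 4930442P19Rik on the other strand (log2 6.26, edgeR adjusted p = 3.18e-07) and Gm43377 on the same strand (log2 5.38, adjusted p = 0.00294). The strand used in counting is not stated, so their reads cannot be told apart from those of Hmx1. Of its nearest protein-coding neighbours, Adra2c, 107345 bases away, rose by a log2 of 0.45 (adjusted p = 0.00652), and Cpz on the other side was not called (log2 0.07, adjusted p = 0.899).

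**Figure D3:**
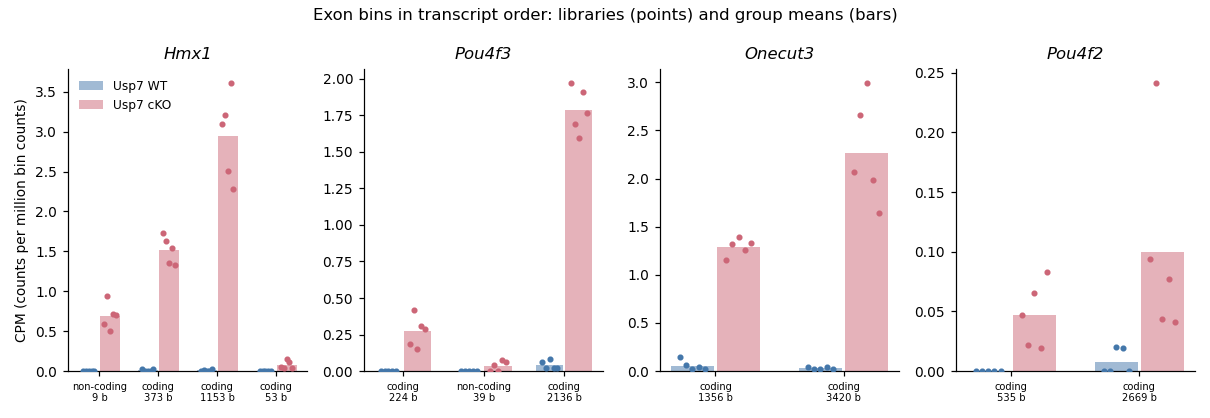
Counts scaled to the library total (CPM, y axis) in the exon bins of 4 members in transcript order, labelled coding or non-coding with their length in bases; points are libraries, bars are means of 5. In Hmx1, Onecut3 and Pou4f2 every bin is higher in all Usp7 cKO libraries than in any Usp7 WT library, as are the 2 coding bins of Pou4f3.

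All 3 class IV POU factors rose. Pou4f3, the factor of inner-ear hair cells, was at 0.156, 0.0477, 0.238, 0.0470 and 0.0587 TPM in Usp7 WT and at 5.07, 5.10, 4.62, 5.18 and 5.02 TPM in Usp7 cKO (10 against 491 reads). Its Usp7 cKO libraries lay close together and far above Usp7 WT (limma log2 3.18, SE 0.137, adjusted p = 5.55e-07). Pou4f2, which specifies retinal ganglion cells, rose but stayed silent by level. It was at 0, 0, 0.0198, 0.0352 and 0 TPM in Usp7 WT and at 0.212, 0.457, 0.213, 0.169 and 0.240 TPM in Usp7 cKO. That is 2 reads against 34, a ratio of 17.8 with an exact 95% interval of 4.56 to 153 (edgeR adjusted p = 0.00165). Pou4f1, a factor of sensory neurons and the habenula, was already present, at 1.12, 1.1, 1.09, 1.24 and 0.799 TPM, and reached 1.76, 1.88, 1.73, 2.15 and 1.58 TPM. The groups did not overlap (edgeR log2 0.77, adjusted p = 0.00311). With limma (log2 0.56, SE 0.132, adjusted p = 0.0181) the call was lost without Usp7 cKO replicate 4 (0.0558).

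Markers of the cells that normally carry these factors were counted beside them. Of 6 markers of peripheral sensory neurons, 1 was called higher by edgeR and 1, P2rx3, fell by 0.48 on the log2 scale, while 4 of the 6 were under 0.5 TPM in both groups and Mrgprd was at 0 in every Usp7 WT library. The sums of the list were 2.01 to 3.60 TPM in Usp7 WT and 7.34 to 8.99 TPM in Usp7 cKO, without overlap, and their part in the levels of the POU members was not tested. Of 5 retinal markers none was called, with sums of 7.49 to 11.9 and 6.53 to 10.3 TPM.

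The other POU members are factors of the normal forebrain. Pou3f1, a factor of cortical projection neurons, was the most abundant member, at 46.3, 41.6, 43.3, 44.2 and 46.4 TPM in Usp7 WT and at 36.3, 40.2, 43.3, 33.8 and 33.8 TPM in Usp7 cKO. It was lower in 4 of 5 Usp7 cKO libraries than in any Usp7 WT library, with replicate 3 within their range (edgeR log2 -0.28, adjusted p = 0.00624; limma log2 -0.25, SE 0.0718, adjusted p = 0.0475). The edgeR call held in every alternative of that fit, and the limma call was lost in 11 of 19, among them leaving out any 1 library but Usp7 WT replicate 2 or Usp7 cKO replicate 3 (adjusted p = 0.0644 to 0.116). Markers of cortical glutamatergic neurons moved the same way. All 6, among them Slc17a7, Tbr1, Neurod6 and Emx1, were called lower by edgeR and their sum was 1724 to 1916 TPM in Usp7 WT and 1274 to 1438 TPM in Usp7 cKO; their part in the change of Pou3f1 was not tested. Of 5 GABAergic markers none was called (sums 274 to 314 and 284 to 333 TPM). Pou3f4, a factor of neural precursors and the striatum, was at 3.50, 4.77, 4.68, 5.56 and 6.5 TPM and at 7.84, 5.07, 5.56, 6.52 and 7.53 TPM in Usp7 cKO, and the groups overlapped (limma adjusted p = 0.194).

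All 3 Onecut genes rose. Onecut factors act in liver, pancreas, retina and motor neurons. Onecut3 (chr10, 80494835 to 80517276) was at 0.209, 0.0719, 0.0664, 0.141 and 0.0737 TPM in Usp7 WT and at 3.88, 4.58, 5.47, 3.81 and 3.69 TPM in Usp7 cKO, with 21 against 830 reads (limma log2 2.96, SE 0.151, adjusted p = 1.79e-06). Onecut1 (chr9, 74861921 to 74891781) was at 0.106, 0.0835, 0.0926, 0.0822 and 0.137 TPM and reached 0.892, 1.86, 1.30, 1.85 and 0.977 TPM (limma log2 1.61, SE 0.208, adjusted p = 0.000744). For both, every Usp7 cKO library lay well above every Usp7 WT library. Onecut2 differed in having a level in Usp7 WT cortex, at 1.5, 1.65, 1.89, 1.5 and 1.84 TPM, and it reached 2.85, 3.32, 3.28, 3.22 and 3.17 TPM without overlap (limma log2 0.76, SE 0.116, adjusted p = 0.00204). Next to Onecut3, Atp8b3 (2308 bases away; 0.269 to 0.616 TPM) and Tcf3 also rose, and the model 2610034O05Rik within it was higher too (log2 4.26, edgeR adjusted p = 0.000213). Over all members called higher, 35 nearest protein-coding neighbours could be tested, of which 5 were higher and 4 lower. Over all genes tested, 9.97% were higher and 9.73% lower.

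**Figure D4:**
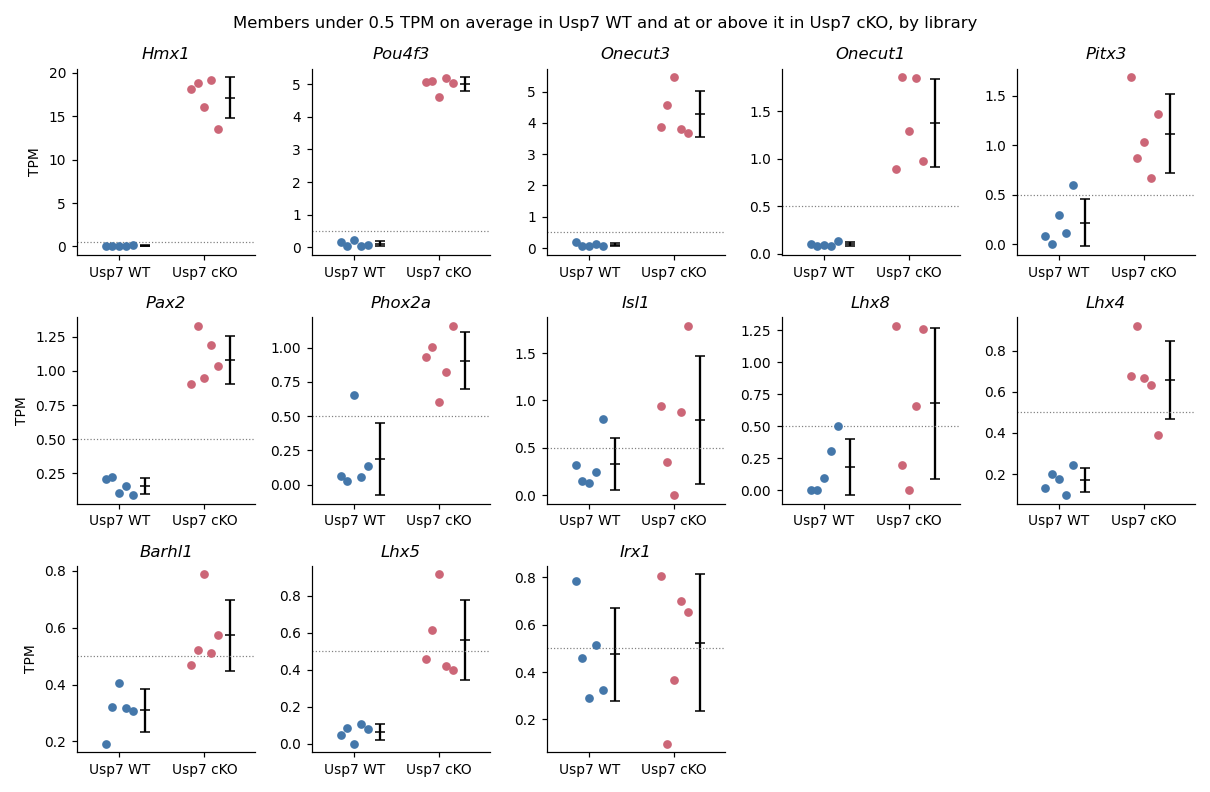
TPM by library (y axis, a scale per gene) for the 13 members whose mean was under 0.5 TPM in Usp7 WT and at or above it in Usp7 cKO; points are libraries in replicate order, bars are mean ± SD (n = 5), the dotted line is 0.5 TPM. The groups are apart in 9 of the 13, and overlap in Phox2a, Isl1, Lhx8 and Irx1.

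Of the 8 Pax genes, 3 rose and 5 were not called or not testable. Pax2, a factor of the midbrain-hindbrain border, kidney and spinal interneurons, was at 0.208, 0.222, 0.106, 0.156 and 0.0912 TPM in Usp7 WT and at 0.904, 1.33, 0.948, 1.19 and 1.04 TPM in Usp7 cKO, with no overlap (limma log2 1.27, SE 0.171, adjusted p = 0.000981). The antisense transcript 1700039E22Rik overlaps Pax2 and also rose (log2 4.80, edgeR adjusted p = 0.00497), so reads of the pair may be mixed. Of the 17 bins of Pax2, 8 had a read in Usp7 cKO and 1 was higher in every Usp7 cKO library than in any Usp7 WT library. Pax6, a factor of cortical progenitors and the eye, was present in both groups, at 1.96, 1.56, 2.20, 2.09 and 2.30 TPM and at 3.16, 2.63, 3.57, 2.51 and 3.59 TPM. Its groups were apart by a small margin (edgeR log2 0.54, adjusted p = 0.00581; limma adjusted p = 0.0454). The limma call was lost in 12 of 19 alternatives, among them leaving out any 1 library but Usp7 cKO replicate 4 (adjusted p = 0.0512 to 0.115). Pax1, of the vertebral column and thymus, rose from a very low level, at 0.0556, 0, 0.0565, 0 and 0.0157 TPM against 0.242, 0.113, 0, 0.373 and 0.158 TPM. Its groups overlapped, since Usp7 cKO replicate 3 had no read (edgeR log2 2.42, adjusted p = 0.0419), and the call was lost without any 1 library but Usp7 WT replicate 1 or Usp7 cKO replicate 3 (adjusted p = 0.0563 to 0.135). Pax3, Pax7, Pax8 and Pax9, factors of neural crest, muscle, thyroid and pharynx, had 1 to 12 reads over the 5 Usp7 WT libraries and 3 to 19 over the 5 Usp7 cKO libraries. Pax5, the B-cell factor, had 40 and 73 reads (edgeR adjusted p = 0.157), although the antisense transcript Gm12462 within it rose by a log2 of 4.49 (adjusted p = 6.15e-09).

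Among the 8 LIM homeodomain genes, Lhx4, Lhx5 and Lhx9 rose. Lhx5, of the early forebrain and spinal cord, was at 0.0465, 0.0851, 0, 0.105 and 0.0786 TPM and reached 0.455, 0.616, 0.915, 0.422 and 0.395 TPM (edgeR log2 3.31, adjusted p = 6.15e-05). Lhx4, a pituitary and motor neuron factor, was at 0.131, 0.199, 0.177, 0.0981 and 0.245 TPM and reached 0.675, 0.921, 0.667, 0.631 and 0.391 TPM (edgeR log2 2.11, adjusted p = 0.000137). Lhx9, of the gonad and thalamus, stayed silent by level, at 0.0790, 0.151, 0.154, 0.101 and 0.0445 TPM against 0.215, 0.275, 0.374, 0.222 and 0.355 TPM (edgeR log2 1.61, adjusted p = 0.000413). All 3 had groups that did not overlap. Of 6 thalamic markers only Prkcd was called, and it was higher (sums 62.1 to 66.8 and 70.3 to 85.8 TPM). Lhx3, the close relative of Lhx4, had 7 and 27 reads and missed the threshold (edgeR adjusted p = 0.0548). It passed, as higher, in 5 of its 16 alternatives: a mean count of at least 2 (0.0468), without both libraries of discordant sex (0.0322), or without Usp7 WT replicate 2 (0.0464), Usp7 cKO replicate 1 (0.0423) or Usp7 cKO replicate 2 (0.0455). Lhx1 and Isl2 had 8 to 10 reads against 24 to 27 reads in Usp7 cKO, without a call.

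Isl1 and Lhx8, together with Six3, had a spread among the Usp7 cKO libraries that was larger than the difference between the group means. Six3, of the anterior forebrain and striatum, was at 0.918, 0.757, 0.652, 0.920 and 1.99 TPM in Usp7 WT and at 3.23, 1.29, 0.126, 3.02 and 4.68 TPM in Usp7 cKO. Isl1, of striatal and motor neurons, was at 0.316, 0.145, 0.128, 0.242 and 0.801 TPM and at 0.944, 0.354, 0, 0.874 and 1.79 TPM. Lhx8, of cholinergic neurons of the basal forebrain, was at 0, 0, 0.1, 0.311 and 0.501 TPM and at 1.29, 0.201, 0, 0.662 and 1.26 TPM. In all 3 genes Usp7 cKO replicate 3 had the lowest or an equally low level, and Usp7 cKO replicates 1, 4 and 5 had the highest levels, followed by Usp7 WT replicate 5. The summed level of 8 striatal markers (among them Drd1, Drd2, Adora2a, Rgs9, Ppp1r1b, Gpr6 and Tac1), none of them called, had its lowest value and its 4 highest in the same libraries. It ranged from 234 to 485 TPM in Usp7 WT and from 167 to 630 TPM in Usp7 cKO, and its part in these levels was not tested. None of the 3 was called (edgeR adjusted p = 0.0898 for Six3, 0.222 for Isl1 and 0.113 for Lhx8). Without Usp7 cKO replicate 3 all 3 passed the threshold (adjusted p = 0.000814, 0.0213 and 0.0314), and so did Lhx8 without Usp7 WT replicate 5 (0.0303). Over all alternatives of that fit the adjusted p ran up to 0.46 for Six3, 0.74 for Isl1 and 0.44 for Lhx8. Of 3 cholinergic markers, Slc18a3 rose (3.83 to 9.55 TPM) and Chat and Slc5a7 were not called, with sums of 4.42 to 7.76 and 9.76 to 15.1 TPM.

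**Figure D5:**
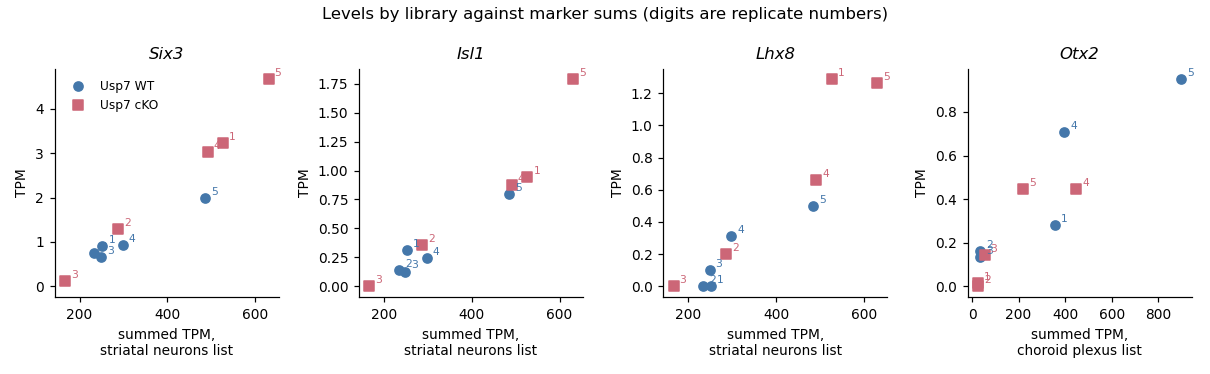
TPM of Six3, Isl1 and Lhx8 (y axes) against the summed TPM of 8 striatal markers and of Otx2 against that of 7 choroid plexus markers (x axes), each point a library with its replicate number; circles are Usp7 WT and squares Usp7 cKO. Usp7 cKO replicate 3 is lowest and replicate 5 highest on the striatal axis, and Usp7 WT replicate 5 is highest on the choroid plexus axis.

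The further members of the family, Six2 and Six6, were not called or could not be fitted. Six2, a kidney factor, lay between 0.299 and 0.997 TPM in Usp7 WT and between 0.335 and 1.09 TPM in Usp7 cKO (limma adjusted p = 0.8), and Six6, of the eye and pituitary, had 2 reads and 0.

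En2 and Gbx1 rose, while their paralogs En1 and Gbx2 stayed silent. En2, a factor of the midbrain and cerebellum, was at 0.282, 0.857, 0.556, 0.430 and 0.677 TPM in Usp7 WT and at 0.883, 1.19, 2.20, 1.37 and 1.05 TPM in Usp7 cKO (edgeR log2 1.23, adjusted p = 0.00398). Gbx1, of the spinal cord, was at 0.683, 0.428, 0.566, 0.583 and 0.588 TPM and reached 1.21, 1.41, 0.944, 0.949 and 1.38 TPM (edgeR log2 1.04, adjusted p = 0.00345). In both genes the groups were apart, for En2 only just. The edgeR calls held in every alternative of that fit. The limma call of En2 (adjusted p = 0.0432) was lost without any 1 library but Usp7 WT replicate 2 (0.0514 to 0.105), and that of Gbx1 (adjusted p = 0.0239) without replicate 2 of Usp7 WT or replicate 1, 2 or 5 of Usp7 cKO (0.0594 to 0.0699). En1 had 2 and 8 reads, and Gbx2, of the hindbrain and thalamus, 4 and 9.

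Pitx3 and Phox2a, known from monoamine neurons, rose from silence, and their relatives did not. Pitx3, of midbrain dopamine neurons and the lens, was at 0.0819, 0, 0.291, 0.111 and 0.6 TPM in Usp7 WT and at 1.69, 0.877, 1.03, 0.673 and 1.32 TPM in Usp7 cKO (limma log2 1.20, SE 0.271, adjusted p = 0.0156). Elovl3 overlaps Pitx3 on the other strand and also rose (log2 3.58, edgeR adjusted p = 0.00571), so reads of the pair may be mixed. Phox2a, of noradrenergic neurons, was at 0.0614, 0.0281, 0.655, 0.0553 and 0.138 TPM and at 0.935, 1, 0.605, 0.823 and 1.16 TPM (limma log2 1.09, SE 0.249, adjusted p = 0.0168). Its groups overlapped through Usp7 WT replicate 3, the 1 Usp7 WT library with more than 2 reads. Without both libraries of discordant sex the limma calls of Pitx3 and Phox2a were lost (adjusted p = 0.0935 and 0.0821), while their edgeR calls (log2 2.63, adjusted p = 0.00132, and log2 3.02, adjusted p = 9.6e-05) held in every alternative of that fit. Of 6 monoamine markers, the dopamine transporter Slc6a3 (0.121 to 1.59 TPM) and Fev (0.0321 to 0.360 TPM) rose, and Th, Tph2, Dbh and Slc6a4 were not called. The sums were 5.30 to 7.37 and 7.59 to 8.64 TPM.

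Otx1, of deep cortical layers, was at 5.90, 7.62, 7.16, 5.35 and 6.44 TPM and at 5.70, 5.46, 7.26, 5.43 and 5.55 TPM, with overlapping groups (limma adjusted p = 0.530). Otx2 was at 0.281, 0.163, 0.135, 0.707 and 0.951 TPM and at 0.0161, 0, 0.146, 0.448 and 0.448 TPM (edgeR adjusted p = 0.451). It was highest in Usp7 WT replicates 5 and 4, then Usp7 cKO replicates 4 and 5. In the brain Otx2 marks the choroid plexus, and 7 other markers of that tissue summed to 33.2 to 899 TPM in Usp7 WT and 24.8 to 448 TPM in Usp7 cKO, with 1 of 7 (Kl) called higher; their part in the level of Otx2 was not tested. Otp, of the hypothalamus, had 19 and 10 reads, and of 8 hypothalamic markers 1 was called, Trh, which was lower (sums 10.3 to 20.5 and 11.4 to 16.5 TPM). Pitx1, of the pituitary and hindlimb, lay between 0.409 and 0.955 TPM and between 0.427 and 0.952 TPM (limma adjusted p = 0.856).

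In the Nkx, Barhl and Tlx group 1 of 6 was called. Barhl1, of cerebellar granule cells and hair cells, was at 0.192, 0.322, 0.406, 0.317 and 0.307 TPM and at 0.470, 0.522, 0.788, 0.512 and 0.575 TPM, apart in all libraries (edgeR log2 0.91, adjusted p = 0.0310). Leaving out replicate 1, 4 or 5 of Usp7 WT, or replicate 3, 4 or 5 of Usp7 cKO, ended the call (adjusted p = 0.0559 to 0.0839). Of 4 other cerebellar markers Car8 was called, and higher, while Gabra6 was at 0.0388 and 0.0445 TPM (sums 9.66 to 12.0 and 12.5 to 14.5 TPM). Nkx2-2, of the oligodendrocyte lineage, was at 4.43, 4, 3.95, 5.6 and 5.81 TPM and at 6.19, 4.59, 5.37, 3.74 and 4.75 TPM, with no call (limma adjusted p = 0.886). Nkx6-1, Barhl2, Tlx1 and Tlx3 stayed silent, with means of 0.00593 to 0.221 TPM in Usp7 WT and 0.0220 to 0.230 TPM in Usp7 cKO.

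Among members known from mesenchyme and limb, Msx2 and Irx3 rose. Msx2, a BMP target, was at 0.457, 0.419, 0.503, 0.378 and 0.816 TPM and reached 1.04, 1.07, 1.15, 0.841 and 0.919 TPM, with the lowest Usp7 cKO library just above the highest of Usp7 WT (edgeR log2 0.96, adjusted p = 0.00948; limma adjusted p = 0.0449). The limma call was lost without any 1 library but Usp7 WT replicate 5 (adjusted p = 0.0683 to 0.102), and the edgeR call in none of these, though leaving out the pair of discordant sex together ended it (adjusted p = 0.0602). Irx3 was at 0.136, 0.104, 0.0689, 0.122 and 0.255 TPM and at 0.32, 0.438, 0.198, 0.274 and 0.321 TPM (edgeR log2 1.34, adjusted p = 0.0418). Its groups overlapped, and the call was lost without any 1 library but Usp7 WT replicate 5 or Usp7 cKO replicate 3 (adjusted p = 0.0622 to 0.102). Irx1 passed 0.5 TPM in Usp7 cKO only by a small margin, with means of 0.475 and 0.524 TPM and no call (edgeR adjusted p = 0.738), and Irx2 and Irx5 stayed silent.

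Msx1 was at 2.58, 1.57, 1.78, 3.96 and 4.57 TPM and at 2.19, 1.52, 1.94, 2.43 and 1.87 TPM (edgeR adjusted p = 0.0851, and 0.0169 to 0.29 over its alternatives). It passed the threshold, as lower, without Usp7 WT replicate 2 (0.0360) or 3 (0.0169). Alx4, of craniofacial and limb mesenchyme, was at 2.30, 0.900, 0.935, 1.31 and 2.81 TPM and at 2.66, 1.99, 4.13, 1.75 and 3.03 TPM (edgeR adjusted p = 0.0686, and 0.00265 to 0.37 over its alternatives). It passed as higher with DESeq2 (0.0375), without Usp7 WT replicate 5 (0.0307) or Usp7 cKO replicate 2 (0.0305), and with the number in the library titles as a block (edgeR 0.00265, limma 0.0301). Both genes overlapped between groups. Prrx1 was at 2.04, 1.70, 1.90, 2.43 and 2.72 TPM and at 2.32, 1.63, 2.35, 2.22 and 1.70 TPM, and it was not called (limma adjusted p = 0.839). Prrx2 was at 1.08, 1.20, 1.49, 1.12 and 2.30 TPM and at 1.77, 1.46, 2.79, 1.98 and 2.29 TPM, also without a call (limma adjusted p = 0.215). With edgeR it passed, as higher, when Usp7 cKO replicate 2 (adjusted p = 0.0432) or Usp7 WT replicate 5 (0.0247) was left out. Alx1 had 7 and 12 reads. Of 8 markers of meningeal fibroblasts, 1 (Foxc1) was called, as higher, and the sums were 45.1 to 77.6 and 52.2 to 77.7 TPM. Of 4 ependymal markers, 2 (Ccdc153 and Rarres2) were higher, with sums of 9.97 to 16.4 and 12.9 to 17.6 TPM.

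Exon usage could be tested in 10 members, among them Hmx1, Onecut2, Onecut3 and Pax6, and none was called by edgeR (2.85% of 13954 genes were). Hmx1 and Onecut3 had only 4 and 21 reads in all of Usp7 WT and passed the bin minimum through Usp7 cKO. Their usage in Usp7 WT can hardly be estimated, so the lack of a call says little about these genes. At an unadjusted p under 0.05 there was 1, Otx1 (unadjusted p = 0.0395), and edgeR's gene-level test called 0 as well. In the authors' deposited table, 112 of the 530 bins of members have an adjusted p-value, of which 1 is under 0.05, a bin of Pou4f1 (0.0294, log2 fold -0.19). The share over all bins is not given here, so whether this count is high or low for the members is left unsaid.

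Other homeobox genes were counted in the same fit. Of 45 cortical homeobox genes, 9 were higher and 9 lower, with a median log2 of 0.09. Higher were, among others, Hopx (7.29 to 12.9 TPM), Zeb1 (22.5 to 29.2 TPM), Tgif1 (0.547 to 1.08 TPM), Meis3 (28.9 to 35.6 TPM) and Pbx3 (4.35 to 6.24 TPM). Lower were, among others, the cortical projection neuron factors Emx1 (44.1 to 31.7 TPM), Cux2 (101 to 83.4 TPM) and Cux1 (38.1 to 32.9 TPM), and Pknox2 (33.4 to 29.9 TPM). Of 72 other developmental homeobox genes, 50 could be fitted, of which 12 were higher and 2 lower, with a median of 0.57. Among all 32343 genes of this fit, 9.97% were higher and 9.73% lower. The cortical list lay above both of these shares. The other developmental list lay above the share called higher and below the share called lower. Gsc2 (0.132 to 3.62 TPM), Nkx1-1 (0.125 to 2.84 TPM) and Msx3 (0.141 to 1.51 TPM) rose, as did Barx1, which had no read in Usp7 WT and 49 in Usp7 cKO (at least 17.1-fold higher, against 3 counts over the group). Barx2 (11.4 to 6.31 TPM) and Sebox (3.37 to 2.47 TPM) fell. The members' median of 0.91 lies above both lists, but whether the lists differ was not tested.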

How the data were processed

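Total RNA of 10 cortices, 1 library per animal, was depleted of ribosomal RNA and sequenced, per the labels' protocols. The labels name 5 litter- and sex-matched pairs (2 male, 3 female) but not which animals form them. The authors deposited TPM per gene and, for 458337 exon bins, raw read counts beside their DEXSeq log2 fold of exon usage with its p-value, per the file headers. STAR 2.7.9a, SAMtools 1.10, Subread, featureCounts and GRCm38 are listed, without their roles, in the submitters' processing notes; the counting strand is not given in the sources used here. Repeated lines of the TPM table (287) were used 1 time.

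Bin counts were summed per gene and tested with edgeR 4.0.16 (quasi-likelihood, TMM) in R 4.3.3, with labelled sex as covariate. Without a minimum edgeR estimated infinite prior degrees of freedom, so a mean count of at least 1 (prior 10.2) was added after the data were seen and is reported first. TPM was tested with limma 3.58.1 (trend, robust) on log2(TPM + 0.5) for a mean of at least 0.5 TPM, a scale that understates changes of low genes; SE is the moderated standard error. All p-values were adjusted by Benjamini-Hochberg over all genes fitted. Exon usage used diffSpliceDGE on bins with a mean count of at least 10. DESeq2 1.42.0 was an alternative. The edgeR fit with no minimum, the limma fit and the exon usage fit were tested on simulated counts with the same spread for every gene. The edgeR fit with a minimum and DESeq2 were not tested in this way. Bin classes, overlaps and neighbours come from GENCODE on GRCm38, gene starts from RefSeq, exact intervals from scipy 1.17.1. Floors are 3 counts. The members, lists and tests were chosen with earlier results of these data known. Every member is named; those with a group mean of at least 1 TPM or called by either planned fit are given in every library, and of each list of other homeobox genes the 4 called with the smallest p in each direction are named, in the fit without and with the minimum; a few genes of these and the marker lists are counted but not reported here by name.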

Additional observations from a re-analysis of the deposited data

Results flagged for a closer look

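Within 7 of the 64 groups of 5 libraries checked, 1 library lay far from the others by Dixon's criterion (about 1 in 20 groups does so by chance). In Usp7 WT replicate 5, Six3 was at 1.99 TPM against 0.652 to 0.920 in the other Usp7 WT libraries, Isl1 at 0.801 TPM against 0.128 to 0.316, and Msx2 at 0.816 TPM against 0.378 to 0.503. In Usp7 WT replicate 3, Phox2a was at 0.655 TPM against 0.0281 to 0.138. In Usp7 cKO replicate 3, Otx1 was at 7.26 TPM against 5.43 to 5.70, and Pou4f3 at 4.62 TPM against 5.02 to 5.18. In Usp7 cKO replicate 2, Pou4f2 was at 0.457 TPM against 0.169 to 0.240.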

How the results depend on the processing

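The labels do not name the pairs. The number that ends each library title (1, 2 or 3) is shared across genotypes, but the labels do not say what it marks. Over 23012 genes, deviations from the group means correlated at 0.0442 to 0.255 in the 9 pairs across genotypes that share it, 6 of them over 0.1, and at -0.302 to 0.174 in the 16 others; 9 of 10 libraries correlated best with one of their own number. Within each number the labelled sexes are the same in both genotypes, so the number would allow the 2 male and 3 female pairs that the labels name. Since not every such pair passed 0.1, the number was not taken as a pairing. The main fits may therefore leave a litter effect unadjusted. Chosen after seeing the data, a fit with it as a replicate block beside sex called 21 members higher and 1 lower with edgeR at a mean count of at least 1, 23 and 1 with no minimum, and 12 and 0 with limma, and 2 other developmental homeobox genes lower with no minimum. Alx4 gained its calls there, and the limma calls of Pou3f1, En2 and Msx2 were lost. When 1 library was left out, members called higher numbered 17 to 22 (lower 1 to 2) with edgeR at a mean count of at least 1, 22 to 26 (lower 1 to 3) with no minimum, and 8 to 11 (lower 0 to 1) with limma. Without both libraries of discordant sex, limma called 6 higher and 0 lower and edgeR at a mean count of at least 1 called 18 higher and 1 lower; a minimum mean of 1 TPM left 6 higher, and no TPM minimum left 0 lower. With no count minimum, 3 members were lower, against 1 with DESeq2, a mean count of at least 10, no covariate or Xist as covariate. Cortical homeobox genes called higher with no minimum were 13, against 7 with Xist as covariate and 6 without the discordant libraries (9 to 16, and 8 to 11 lower, without 1 library); at a mean count of at least 1 they were 9, against 4 and 4 (5 to 12, and 7 to 10 lower). Other developmental homeobox genes with no minimum were 13 higher, against 8 at a mean count of at least 10 and 8 without the discordant libraries (10 to 13), and 1 lower, against 2 at a mean count of at least 10 (1 to 2). At a mean count of at least 1 they were 12 higher (9 to 12 without 1 library) and 2 lower (1 to 3), against 1 lower with Xist as covariate and without the discordant libraries. Members silent in Usp7 WT alone were 13 (12 to 14 without 1 library, 9 at 0.1 TPM and 9 at 1 TPM), and silent in both 26 (25 to 27, 12 at 0.1 TPM, 35 at 1 TPM). Exon usage gave 0 calls in every alternative run. The cause of these differences was not tested. With edgeR at a mean count of at least 1 and with limma, of 814 alternative values of the 29 members called in these fits, in their alternatives or by edgeR with no minimum, 712 kept their side of the threshold, 85 lost a call, 17 gained one and 0 changed direction. Members under about 10 reads per group are limited by depth.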
